A study of Mus musculus with 55 samples.

Results

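The opioid system of the ventral dentate gyrus was examined through 7 genes, the 3 opioid peptide precursors Penk, Pdyn and Pnoc and the 4 receptors Oprm1, Oprd1, Oprk1 and Oprl1. Penk was chosen by its difference between enriched (EE) and standard (SH) housing in these same libraries, so its housing values are a description without a test, whereas the other 6 genes were added as its family. The 7 genes are 7 of 45318 in the tables, and all 7 were among the 18283 genes kept by the filter on low counts.

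Opioid peptides are cut from large precursor proteins, stored in dense core vesicles and released during sustained firing, and each acts on receptors coupled to inhibitory G proteins that lower calcium entry, open potassium channels and reduce cyclic AMP. Enkephalins from Penk act mainly on the delta and mu receptors (Oprd1, Oprm1), dynorphins from Pdyn on the kappa receptor (Oprk1), and nociceptin from Pnoc on its own receptor (Oprl1). In the dentate gyrus, granule cells are known to make both dynorphin and enkephalin and to carry them in the mossy fibers, whereas mu and delta receptors are known chiefly from GABA interneurons.

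RNA came from ventral dentate gyrus punches of single male C57BL/6J mice, isolated at postnatal day 90 after 8 weeks in SH (3 mice per cage) or EE (12 per cage) from day 21. Mice were either left unstressed (control) or exposed to 10 days of chronic social defeat stress (CSDS) by CD-1 aggressors, and defeated mice with a social interaction ratio above 1 were called resilient (RES) and those below it susceptible (SUS). SH held 10 control, 7 RES and 10 SUS mice, and each of the 3 EE groups held 9 mice, which gave 54 mice and 55 libraries, because EE control mouse 9 was sequenced in 2 runs that were summed. RES and SUS are outcomes of the same treatment, and the cage of each mouse is not given in the sources used here, so p-values measure the spread between these mice.

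Between 16760009 and 45872357 counts per mouse fell on genes, with a median of 21552884. Levels are given as CPM, counts scaled to the library total, after TMM scaling. Dentate granule cell markers were abundant in every mouse, with summed levels of the 7 markers between 397 and 874 CPM, and the labels named no batch. Other tissue was present in some punches, since the 9 choroid plexus markers summed to 18.5 to 993 CPM per mouse, with a median between 22.4 and 25.2 CPM in every group. Other marker sums were less even across groups. The thalamus markers had a median of 287 CPM in EE SUS mice and of 127 to 182 CPM in the other groups. For the oligodendrocyte markers the medians ran from 1201 CPM in SH RES to 1733 CPM in EE SUS mice.

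Per kilobase of exon, Oprl1 was the most abundant opioid gene, at 17.4 ± 1.28 CPM per kb (SD, n = 54), above 85.0% of the genes tested. Penk at 10.1 ± 2.54 and Pdyn at 9.11 ± 1.73 CPM per kb followed and did not differ beyond their spread, as did Pnoc at 2.15 ± 0.306 and Oprd1 at 1.91 ± 0.339. The mu receptor Oprm1, at 0.323 ± 0.0568, and the kappa receptor Oprk1, at 0.213 ± 0.0865 CPM per kb, were the lowest, with overlapping spreads. The order of the leading precursors differed between housings. In control mice, the Penk level was below that of Pdyn in SH (7.46 ± 1.41 against 10.2 ± 1.74 CPM per kb, n = 10) and above it in EE (12.3 ± 2.10 against 9.15 ± 1.90, n = 9).

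Penk was higher in EE than in SH in all 3 phenotypes, by a factor of 1.502 between the medians of the 27 EE and 27 SH mice. In SH, the lowest, median and highest Penk levels were 9.57, 12.1 and 17.3 CPM in control mice, 11.8, 14.7 and 20.96 CPM in RES mice and 11.2, 13.5 and 15.8 CPM in SUS mice. In EE they were 15.6, 21.3 and 24.9 CPM in control mice, 15.7, 19.6 and 23.6 CPM in RES mice and 15.5, 19.5 and 23.3 CPM in SUS mice. All 27 EE mice lay above the SH median of 13.1 CPM, and 24 of 27 SH mice lay below every EE mouse. The SH mice that reached into the EE range were 3, namely control replicate 10, RES replicate 5 and SUS replicate 5.

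**Figure D1:**
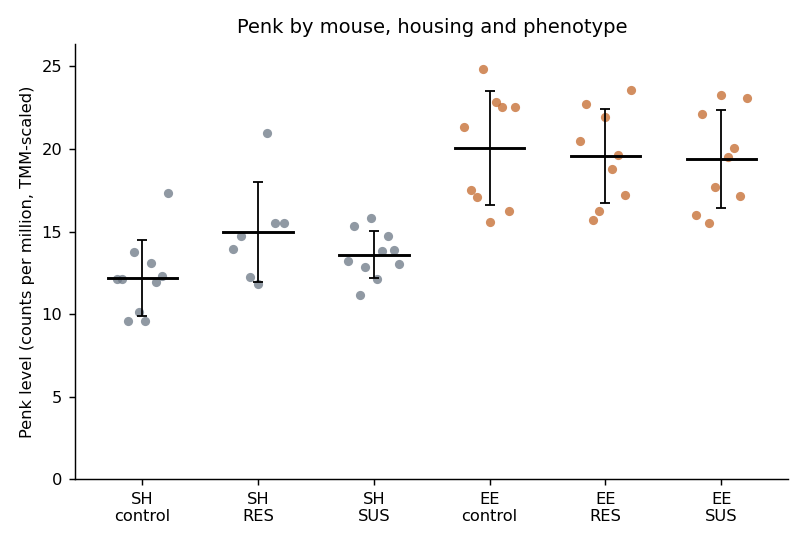
Penk level in CPM (vertical axis, from 0) for each of the 54 mice by housing and phenotype, with 1 point per mouse, a bar for the group mean and whiskers for the SD. The EE means lie between 19.4 and 20.1 CPM and the SH means between 12.2 and 14.96 CPM.

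The log2 difference of Penk between EE and SH was 0.72 in control mice, 0.39 in RES mice and 0.51 in SUS mice, and 0.54 over the 3 phenotypes. Mean levels were 20.1 ± 3.44 CPM (SD, n = 9) in EE against 12.2 ± 2.30 (n = 10) in SH control mice, 19.6 ± 2.84 (n = 9) against 14.96 ± 3.03 (n = 7) in RES mice and 19.4 ± 2.97 (n = 9) against 13.6 ± 1.44 (n = 10) in SUS mice. Whether the difference varied among phenotypes was not tested. Without SH RES replicate 5, the highest SH mouse, the value in RES mice was 0.48. In bulk tissue, more cells of a type and more RNA per cell cannot be told apart.

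Penk is best known from striatal neurons that project to the pallidum and, in the hippocampus, from GABA interneurons and granule cells, so the markers of these cells are given beside it. The summed level of the 10 striatal markers had medians between 125 and 126 CPM in the 6 groups, and of the defining striatal markers Six3 and Isl1 had no counts in 35 and 45 of 54 mice. Over the phenotypes, 0 of the 10 interneuron markers and 2 of the 7 granule cell markers passed the edgeR test between housings, with median log2 differences of 0.03 and -0.12. The 2 that fell in EE were Tdo2 and Dsp, while Mbp, a myelin gene of the oligodendrocyte list, rose, as did Flt1 of the endothelial and Fosb of the immediate early gene list, and the part of these differences in that of Penk was not tested. With scores of choroid plexus, thalamus and striatum markers as covariates, the Penk difference over the phenotypes was 0.55. With a granule cell marker score, added as an alternative after seeing the data, it was 0.59. Both values are a description, because Penk was chosen for its housing difference. The striatal score averages genes of opposite direction, such as Drd1 (log2 difference 0.33, not past the test) and Rgs9 (-0.17). How well the scores capture tissue makeup was not tested.

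Defeat was next compared with the unstressed state, in each housing, to ask whether CSDS changed the opioid genes. No member passed the edgeR quasi-likelihood test at an adjusted p of 0.05 in RES or SUS mice of either housing. Over all genes, 0% were called in SH RES, 0.0328% in SH SUS, 0% in EE RES and 0% in EE SUS mice against control mice, so a count of 0 among 7 genes was the background count as well. At an unadjusted p of 0.05, 2 members passed in SH RES mice and 0 in the other 3 comparisons, while between 508 and 1447 of 18283 genes did. DESeq2 and limma-voom called 0 members in these comparisons too.

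Of the precursors, Penk in SH RES mice was among these 2 members. It was 0.30 higher than in SH control mice on the log2 scale (SE 0.11, edgeR unadjusted p = 0.00953, adjusted p = 0.9999), and 6 of 7 RES mice lay above the control median of 12.1 CPM. A two-sided exact permutation test of the same mice gave p = 0.0428. The groups overlapped, since 1 of 7 RES mice exceeded every control mouse, and without RES replicate 5 the difference was 0.20. The SH control mice of this comparison also belong to the housing difference on which Penk was chosen.

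In SUS mice of SH the Penk difference from control was 0.16 (SE 0.10, edgeR adjusted p = 0.9997). In EE the log2 differences of Penk were -0.04 in RES and -0.05 in SUS mice (SE 0.10, edgeR adjusted p = 0.940 and 0.929), and SUS mice were -0.02 from RES mice. The defeat effect on Penk was 0.27 lower in EE than in SH, which uses housing and is therefore given without a test.

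Pnoc, the precursor of nociceptin, was the second member. Its lowest, median and highest levels were 2.98, 4.57 and 4.99 CPM in SH RES and 3.996, 4.82 and 6.46 CPM in SH control mice. The RES mice spanned a lower range, with 3 of 7 below every control mouse, and the difference was -0.23 (SE 0.10, edgeR unadjusted p = 0.0275, adjusted p = 0.9999). The exact permutation test of these mice gave p = 0.069, above the threshold. In the other groups the mean Pnoc level lay between 4.44 and 4.84 CPM, inside the spread of the control mice.

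Within each housing, SUS and RES mice were then set against each other, the contrast that divides defeated mice by their behavior. Again 0 of 7 members passed the edgeR test in SH, in EE or over both housings, where 0%, 0% and 0% of all genes were called. For defeated against control mice over both housings, 0 of 7 members and 0.0438% of all genes were called. Unadjusted, 1 member passed between SUS and RES mice of EE, and 0 in SH, against 643 and 893 genes in all. Over both housings 0 members passed unadjusted for SUS against RES (671 genes) and for defeated against control mice (879 genes), and DESeq2 and limma-voom called 0 members at the adjusted threshold in each of these comparisons. The member that passed unadjusted in EE was Oprd1, the delta receptor that enkephalins bind. Exact permutation tests between SUS and RES mice also gave p = 0.0443 for Oprk1 in EE and p = 0.0466 for Pdyn in SH. For these edgeR gave an unadjusted p of 0.109 and 0.128.

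Oprd1 spanned 6.62, 8.78 and 11.9 CPM (lowest, median and highest) in EE RES mice and 6.65, 7.39 and 8.28 CPM in EE SUS mice. Of the 9 RES mice, 6 lay above every SUS mouse, and the difference was -0.28 for SUS minus RES (SE 0.10, edgeR unadjusted p = 0.00862, adjusted p = 0.9997, exact permutation p = 0.0132). In SH the same difference had the other sign, 0.16 (SE 0.11), with levels of 5.67, 6.94 and 8.02 CPM in RES and 5.88, 7.97 and 9.06 CPM in SUS mice. The change of the SUS to RES difference between housings was -0.44 for Oprd1 (SE 0.15, edgeR unadjusted p = 0.00542, adjusted p = 0.977), which did not pass the test.

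For that interaction 0 of 6 members and 0% of all genes passed, as did 0 of 6 members and 0% of genes for the change of the defeat effect between housings. Unadjusted, 2 and 0 members and 884 and 1183 genes passed, and limma-voom and DESeq2 called 0 members. The second member with an unadjusted p below 0.05 in the interaction was Oprk1, the dynorphin receptor, at -0.75 (SE 0.37, edgeR unadjusted p = 0.047, adjusted p = 0.977). Oprk1 was counted between 15 and 141 times per mouse and had the widest spread of the 7 genes, with a coefficient of variation of 40.6% over 54 mice. Its group means lay between 1.64 and 2.29 CPM, and the SH SUS range of 0.976 to 4.27 CPM covered nearly the whole series.

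The housing comparison of the other 6 members addresses whether the receptors and the other precursors differed along with Penk. None passed the edgeR test in control, RES or SUS mice or over the 3 phenotypes, where 0.00547%, 0.273%, 0.00547% and 2.42% of all genes were called. Unadjusted, 0, 3, 0 and 2 of the 6 members passed, against 917, 2934, 1346 and 3224 genes. The median log2 difference of the 6 members over the phenotypes was 0.03, beside 0.00 for all genes.

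**Figure D2:**
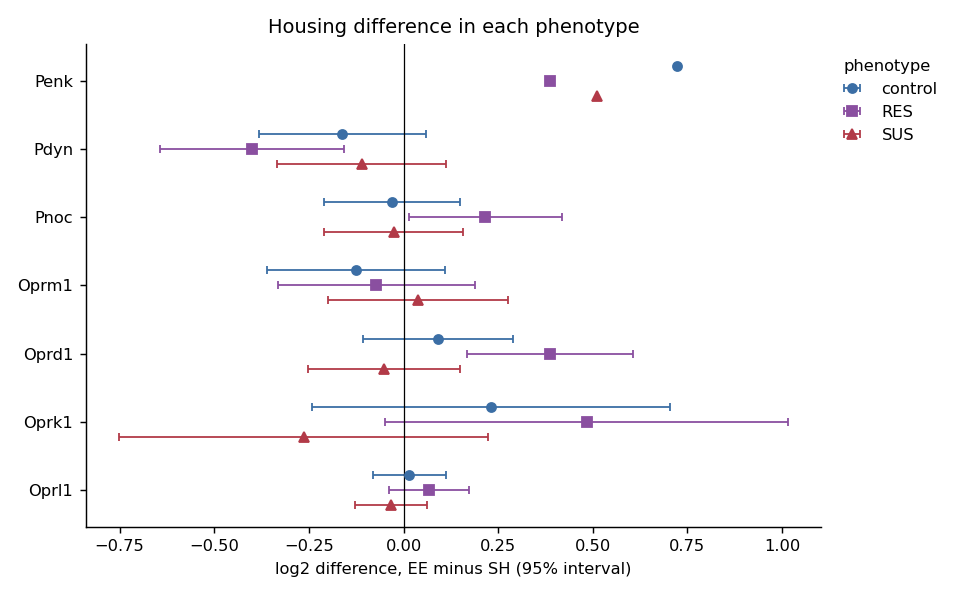
Log2 difference between EE and SH mice (horizontal axis) for the 7 opioid genes in control, RES and SUS mice, with 95% intervals of the edgeR fit. Penk has no interval because it was chosen on these values; its points lie between 0.39 and 0.72, and of the other genes Pdyn, Pnoc and Oprd1 have an interval that leaves out 0, each in RES mice.

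Pdyn, the dynorphin precursor, was lower in EE than in SH, the opposite direction to Penk, without passing the edgeR test. The lowest, median and highest Pdyn levels were 25.01, 29.8 and 32.6 CPM in SH RES and 16.4, 23.9 and 29.1 CPM in EE RES mice, and 6 of 9 EE mice lay below every SH mouse. The difference was -0.40 (SE 0.12, edgeR unadjusted p = 0.00213, adjusted p = 0.105, exact permutation p = 0.0042). Over the 3 phenotypes it was -0.22 (SE 0.07, edgeR unadjusted p = 0.00164, adjusted p = 0.0573), with medians of 28.9 CPM in the 27 SH and 24.6 CPM in the 27 EE mice. The value over the phenotypes stood just outside the threshold with edgeR and inside it with limma-voom (adjusted p = 0.0471) and DESeq2 (adjusted p = 0.0306). With edgeR it passed in 12 of 54 fits that left out 1 mouse, at adjusted p = 0.0228 without SH control replicate 3 and at 0.0304 to 0.0479 without SH RES replicate 5, SH SUS replicate 1 or 3, EE control replicate 3, 6, 7 or 8, EE RES replicate 5, 7 or 9 or EE SUS replicate 9. The difference in RES mice passed without EE RES replicate 9 (edgeR adjusted p = 0.0478).

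The granule cell markers differed in the same direction as Pdyn. In RES mice all 7 were lower in EE, with a median log2 difference of -0.33, and their summed level was 435 to 713 CPM in EE against 665 to 773 CPM in SH; 6 of 7 had an unadjusted p below 0.05 and 0 passed the adjusted test. With the granule cell marker score as a covariate, the Pdyn difference was -0.11 in RES mice (SE 0.07, edgeR adjusted p = 0.699) and -0.09 over the phenotypes (SE 0.04, edgeR adjusted p = 0.346). With the same covariate the Penk difference in RES mice was 0.48, beside 0.39 without it. The score was chosen after seeing the data, and the part of granule cell content in either gene's difference was not tested.

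The delta receptor Oprd1 had a higher level in EE than in SH RES mice, also short of the edgeR threshold. Of the 9 EE mice 6 exceeded the SH maximum of 8.02 CPM, and the difference was 0.39 (SE 0.11, edgeR unadjusted p = 0.00107, adjusted p = 0.0816, exact permutation p = 0.00472). DESeq2 put it inside the threshold (adjusted p = 0.0446), as did edgeR without SH control replicate 3 (adjusted p = 0.0469) or without EE RES replicate 6 (adjusted p = 0.0483), and with the granule cell marker score as a covariate it was 0.24 (SE 0.11, edgeR adjusted p = 0.562). In control mice the difference was 0.09 (SE 0.10) and in SUS mice -0.05 (SE 0.10). Over the 3 phenotypes it was 0.14 (SE 0.06, edgeR unadjusted p = 0.0234, adjusted p = 0.196).

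For Pnoc the housing difference in RES mice was 0.22 (SE 0.10, edgeR unadjusted p = 0.0409, adjusted p = 0.288, exact permutation p = 0.0762). It rests on the same SH RES mice as the defeat comparison, whose level was the lowest group mean of the series at 4.18 ± 0.776 CPM (n = 7). The mu receptor Oprm1, the main target of morphine, had group means between 2.51 and 2.77 CPM, and its differences in the 14 contrasts had no unadjusted p below 0.05. Oprl1, the nociceptin receptor, varied least, with a coefficient of variation of 7.34% over 54 mice and group means between 64.2 and 67.4 CPM. Its 95% interval over the phenotypes ran from -0.04 to 0.07 on the log2 scale. Among the members other than Penk, the highest upper end of these intervals was 0.44 (Oprk1). They are not compared with the value of Penk, which was chosen for its housing difference.

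**Figure D3:**
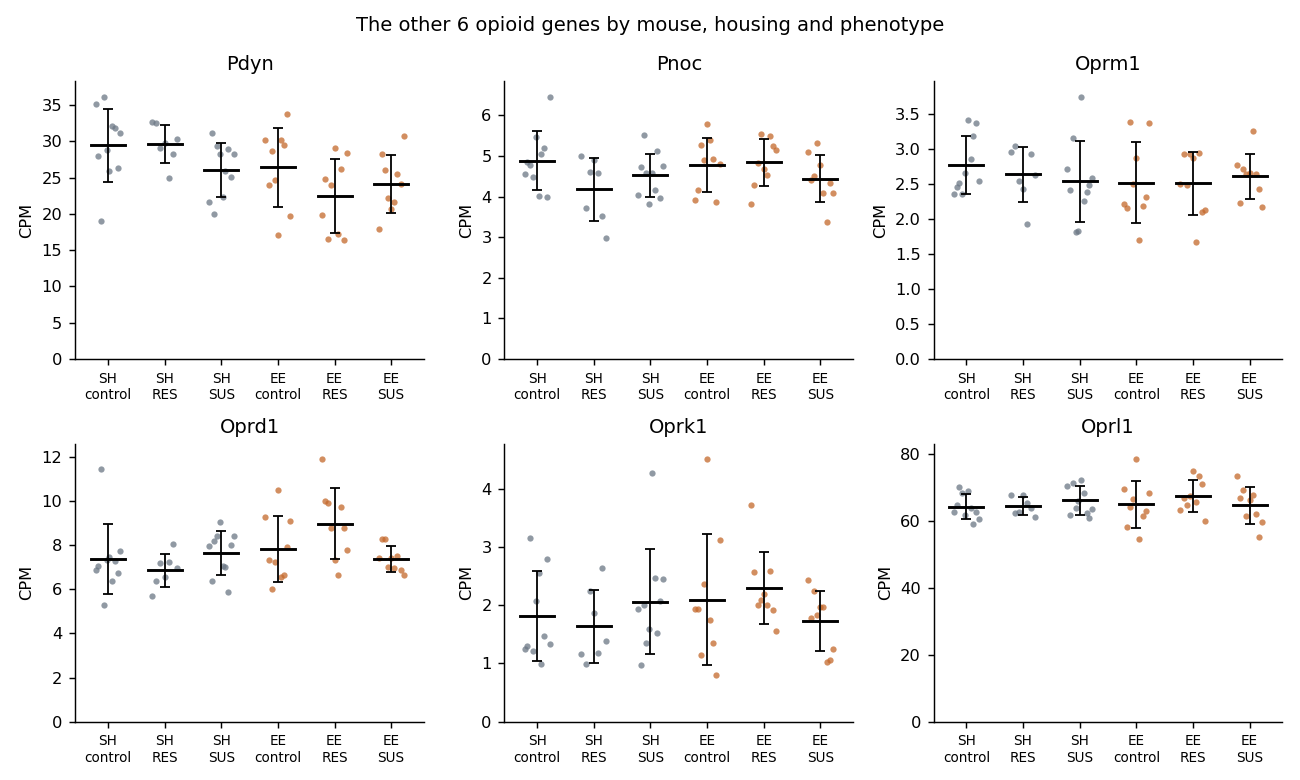
Levels in CPM (vertical axes, from 0) of Pdyn, Pnoc, Oprm1, Oprd1, Oprk1 and Oprl1 by mouse, housing and phenotype, with 1 point per mouse, a bar for the group mean and whiskers for the SD. The groups overlap for all 6 genes, and EE RES mice hold the lowest Pdyn mean (22.5 CPM) and the highest Oprd1 mean (8.96 CPM).

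A looser rule, an unadjusted limma-voom p below 0.05 with a fold change above 1.3, was applied as well. By that rule 0 of 7 members were called in the RES and SUS comparisons within a housing, where 1.21% (SH RES against control), 0.93% (SH SUS against control), 1.14% (SH SUS against RES), 1.17% (EE RES against control), 1.94% (EE SUS against control) and 1.1% (EE SUS against RES) of all genes were called. Between housings it called 0 of the 6 other members in control mice (1.12% of all genes), 1 in RES mice (3.24%) and 0 in SUS mice (1.56%), and the 1 member was Pdyn. Over the phenotypes it called 0 of 6 (0.613%), and over both housings 0 of 7 for defeated against control (0.481%) and for SUS against RES mice (0.454%). Of the interactions, it called 0 of 6 members for the change of the defeat effect (1.68% of all genes) and 2 of 6, Oprd1 and Oprk1, for the change of the SUS to RES difference (2.29%).

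The wider pathway was followed through 42 genes in 6 lists, and all 42 were tested. The lists hold enzymes that cut the precursors, peptidases that degrade the peptides, inhibitory G protein subunits, channels and adenylyl cyclases downstream, receptor regulators, and other opioid peptide or binding genes. In the 8 comparisons of phenotypes, 0 of 42 rose and 0 fell with edgeR, and 0 to 6 had an unadjusted p below 0.05. Over the 3 phenotypes 2 of 42 fell in EE and 0 rose, where 1.54% of all genes were called lower in EE. There 13 of 42 had an unadjusted p below 0.05, a larger share than the 17.6% of all genes. In single phenotypes 0 passed between housings. In RES mice 16 of 42 had an unadjusted p below 0.05, also a larger share than the 16% of all genes. Whether the lists as sets differed from all genes was not tested.

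The 2 genes that fell in EE were regulators of G protein signaling, which shorten the signal of inhibitory G proteins. Rgs14, known for its expression in CA2 pyramidal cells, had means between 70.9 and 76.9 CPM in the 3 SH groups and between 62.9 and 68.0 CPM in the 3 EE groups, a log2 difference of -0.20 (SE 0.04, edgeR adjusted p = 0.00222). Rgs9, best known from the striatum and a member of the striatal marker list as well, differed by -0.17 (SE 0.05, edgeR adjusted p = 0.045), with means between 11.9 and 13.2 CPM in SH and between 10.4 and 12.5 CPM in EE, so the ranges of the group means overlapped. Rgs14 passed in all 54 fits that left out 1 mouse, and Rgs9 in 26 of 54, with adjusted p up to 0.0761 without SH RES replicate 1.

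The remaining 5 lists had no gene past the edgeR test, and the gene of smallest p over the 14 contrasts is given for each. Among the genes of precursor processing it was Pcsk1n, which encodes proSAAS, an inhibitor of the convertase Pcsk1. Its means were 66.1 to 70.97 CPM in the SH groups and 77.9 to 79.1 CPM in the EE groups, a log2 difference of 0.19 over the phenotypes (SE 0.06, edgeR adjusted p = 0.0522). It passed with DESeq2 (adjusted p = 0.0279) and in 15 of 54 edgeR fits that left out 1 mouse, at adjusted p = 0.0206 without SH control replicate 3 and at 0.0324 to 0.0482 without SH control replicate 10, SH RES replicate 4, SH SUS replicate 1 or 3, EE control replicate 4, 7 or 8, EE RES replicate 2, 4, 5, 7 or 9 or EE SUS replicate 7 or 9.

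Among peptidases it was Npepps, an aminopeptidase, at 0.11 for EE minus SH in RES mice (SE 0.03, edgeR adjusted p = 0.103), and among the effectors the adenylyl cyclase Adcy5 at 0.18 in the same comparison (SE 0.05, edgeR adjusted p = 0.0947). Over the phenotypes it was Gnai3, an inhibitory G protein subunit, at -0.06 for EE minus SH (SE 0.02, edgeR adjusted p = 0.125), and Ackr3, an atypical receptor that binds opioid peptides, at -0.14 (SE 0.05, edgeR adjusted p = 0.124).

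How the members varied from mouse to mouse within groups was examined over 54 mice, after the group means had been removed from log2 CPM. In all, 140 relations were computed, between the 7 members and 17 marker lists and among the members, and 36 had an adjusted permutation p below 0.05. These included 12 of the 23 relations of Pdyn, 10 of Oprk1, 8 each of Oprd1 and Oprl1 and 3 of Penk. The mice share tissue punches of varying makeup, so these relations describe what moves together and their cause was not tested.

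Pdyn followed the granule cell markers most closely of the 17 lists, with Pearson r = 0.85 and Spearman rho = 0.81 (permutation p = 1e-05 for each, the smallest that the resamples can give, adjusted p = 0.000233 and 0.00035), and r = 0.83 without the 2 mice farthest from the median score. The relation was 0.84 within SH and 0.86 within EE. The receptors Oprk1 (r = -0.61, rho = -0.64) and Oprl1 (r = -0.61, rho = -0.52) ran the other way, each with an adjusted permutation p below the threshold. Oprd1 was positively related to the interneuron markers (r = 0.59, rho = 0.56) and the CA1 markers (r = 0.58, rho = 0.49), and Oprk1 to the interneuron markers (r = 0.51, rho = 0.45). Pdyn and Oprk1, ligand and receptor, were inversely related over mice (r = -0.59, rho = -0.58, r = -0.53 without the 2 farthest mice).

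Penk showed a weaker link to the granule cell markers (r = 0.33, rho = 0.33, permutation p = 0.0146, adjusted p = 0.0551) that was 0.22 without the 2 farthest mice. Of its 23 relations the strongest was with the 12 immediate early genes, at r = -0.47 and rho = -0.50 (permutation p = 0.00039 and 0.00017, adjusted p = 0.00392 and 0.00297), so mice with more immediate early gene RNA had less Penk RNA. This was seen within SH (r = -0.41) and within EE (r = -0.54), and it was r = -0.43 without the 2 farthest mice. With group means kept, which brings in the housing difference of Penk, it was r = -0.32 and did not pass (adjusted permutation p = 0.0691). Penk was also inversely related to the choroid plexus markers (r = -0.37, rho = -0.34, adjusted permutation p = 0.0256 and 0.0581), at r = -0.25 without the 2 farthest mice and r = -0.24 with group means kept (adjusted permutation p = 0.212). The summed immediate early level itself had medians between 129 and 137 CPM in the 6 groups. Penk and Pdyn were positively related within groups (r = 0.39, rho = 0.40, adjusted p = 0.0196 and 0.0253) and not over the group differences (r = -0.10 with group means kept, adjusted permutation p = 0.697).

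**Figure D4:**
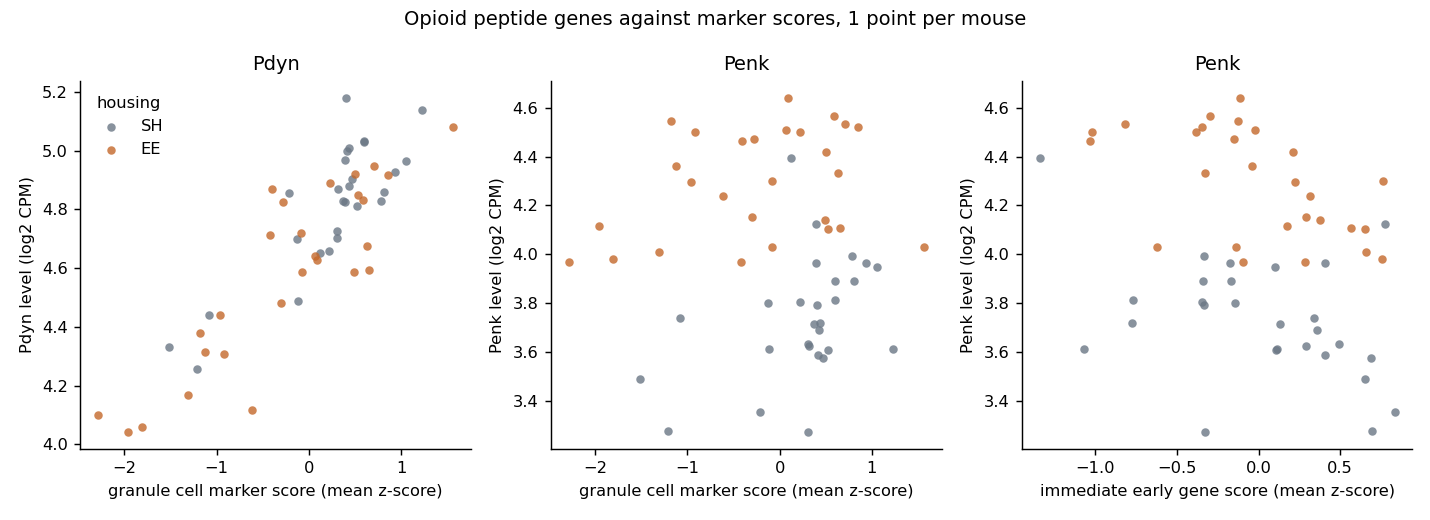
Pdyn (left) and Penk (middle) in log2 CPM against the granule cell marker score, and Penk against the immediate early gene score (right), with 1 point per mouse colored by housing and group means kept. A score is the mean z-score of the listed genes; Pdyn rises with the granule cell score along 1 line in both housings, whereas EE and SH mice form largely separate bands for Penk.

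The genes whose levels ran most like Penk over the 54 mice, with group means removed, were Drd1, the D1 dopamine receptor and a gene of the striatal marker list (r = 0.64), Syne1 (0.64), Fbxo34 (0.62), Plekha2 (0.61), Zfp11 (0.60), Tmc6 (0.59), Slc7a14 (0.59) and Ppp1r1a, an inhibitor of protein phosphatase 1 (0.57). The most opposite were Lonrf1 (-0.61), Plxnc1 (-0.61), Dlc1 (-0.59) and Man2a1 (-0.57). These 12 were picked as extremes among all genes tested, so their r values carry no test.

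Of the 8 genes most like Penk, Tmc6 rose in EE by 0.32 (SE 0.08, edgeR adjusted p = 0.0168) and Ppp1r1a fell by 0.15 on the log2 scale (SE 0.04, edgeR adjusted p = 0.0425), and Drd1 was 0.33 higher without passing (SE 0.10, edgeR adjusted p = 0.0676). The other 5 differed by -0.11 to -0.04 without passing. Tmc6 and Drd1 thus had the direction of Penk and the rest of the 8 the opposite one. Whether likeness to Penk within groups goes with its direction between housings was not tested.

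For Pdyn the closest genes were Tdo2 (r = 0.89), which is also in the granule cell marker list, Mcm6 (0.87) and Dock10 (0.87). Closest to Oprk1 were Npr3 (0.80), Pcsk1 (0.79), a convertase of the pathway list, and Itgbl1 (0.78), and among the closest to Oprd1 were Gpr161 (0.74) and Gm37711 (0.72). Oprl1 ran with Ckmt1 (0.77), Ints4 (0.72) and Gm17018 (0.71). For the sparse Pnoc and Oprm1 the highest values were lower, with Cyp51 (0.56), Csnk2b (0.53) and Gm4204 (0.53) for Pnoc and Rragb (0.54), Cetn2 (0.53) and Impact (0.52) for Oprm1.

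In the GRCm38 annotation Penk lies on chromosome 4 (4133531 to 4138819, minus strand) and shares 499 bases at its 5′ end with the antisense gene A830012C17Rik, which had 0.196 ± 0.117 CPM (SD, n = 54), too few counts to be tested. Its group means were 0.124 to 0.174 CPM in SH and 0.186 to 0.289 CPM in EE. Forward-strand counts were 0.900% of the stranded Penk counts, and counting without strand gave 0.903 times the reverse-strand count. Oprm1, on chromosome 10 (6758506 to 7038198, plus strand), overlaps Ipcef1 on the other strand, and 45.9% of the stranded counts on its exons were on the forward strand, so only the reverse-strand counts used here separate the pair. Pdyn (chromosome 2, 129686565 to 129699844, minus strand), Pnoc (chromosome 14, 65400673 to 65425472, minus strand), Oprd1 (chromosome 4, 132110726 to 132144486, minus strand), Oprk1 (chromosome 1, 5588466 to 5606131, plus strand) and Oprl1 (chromosome 2, 181715016 to 181720985, plus strand) overlap no other annotated gene.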

How the data were processed

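Gene counts of 55 libraries from 54 mice were used as the authors deposited them, 1 table per library in the layout that STAR writes, with unstranded, forward-strand and reverse-strand columns and no normalization. The submitters' processing notes name STAR, Picard and mm10, and versions are not given in the sources used here. The reverse-strand column was used, since the forward-strand column held 3.51% to 4.13% of the stranded counts per mouse. Rows that name no gene stayed out: unmapped reads were 13.9% to 19.9%, multimapping reads 8.70% to 12.1%, reads outside genes 19.9% to 28.8% and ambiguous reads 0.836% to 1.12%. Of 45318 gene IDs, 44671 matched GENCODE vM21, which gave symbols, positions and exon lengths.

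Genes were filtered by filterByExpr, scaled by TMM and fitted over the 6 groups with the quasi-likelihood test of edgeR 4.0.16 in R 4.3.3, with Benjamini-Hochberg adjustment over all 18283 genes at 0.05. Log2 CPM used a prior count of 2. limma 3.58.1, DESeq2 1.42.0, another scaling and filter, marker scores, the replicate number as a block and leaving out each mouse were alternatives. Relations used 100000 permutations in SciPy 1.17.1, and tests of single members were exact permutation tests where a group held fewer than 10 mice. The edgeR fit was tested on simulated data. Genes were named by rule: the 7 members, the pathway gene of smallest p per list and those that passed, the 8 genes most like and 4 least like Penk, and the 3 most like each other member. Some genes that met these rules are not reported here. A marker score is the mean z-score of log2 CPM. The members and gene lists were chosen with earlier results of these data known. Reads carry no molecular identifiers, so depth bounds the counting error only.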

Additional observations from a re-analysis of the deposited data

Results flagged for a closer look

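In 4 of 42 checks of a member in a group, 1 mouse stood apart from the rest of its group by more than Dixon's critical value, where chance flags about 1 in 20 groups. For Penk this was SH RES replicate 5, at 20.96 CPM with the next mouse at 15.5 CPM, and this mouse had the lowest immediate early gene score of the 54 mice (-1.34). For Oprd1 it was SH control replicate 3, at 11.4 CPM with the next at 7.70 CPM. That mouse had the highest choroid plexus sum of the series (993 CPM), a low granule cell score (-1.22), and the lowest Pdyn (19.0 CPM) and highest Oprk1 (3.16 CPM) levels of its group. For Oprk1 the mice were EE RES replicate 1, at 3.72 CPM with the next at 2.59 CPM, and SH SUS replicate 6, at 4.27 CPM with the next at 2.46 CPM. SH SUS replicate 6 also had the highest Oprm1 (3.74 CPM) and Oprl1 (72.3 CPM) levels of its group.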

How the results depend on the processing

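Counted as calls of a gene in a contrast, the 6 members other than Penk had 0 between housings with edgeR, against 1 with limma-voom, 2 with DESeq2, 1 with sample quality weights, 1 with marker scores as covariates and 0 to 2 when 1 mouse was left out. The 42 pathway genes had 2 such calls, against 1 without the filter, 1 with unstranded counts, 6 with DESeq2, 6 with quality weights, 0 with groups fitted alone and 1 (without EE RES replicate 3) to 6 (without EE RES replicate 9) when 1 mouse was left out. The cause was not tested. The other counts of members stayed at 0 under every alternative run. Permutation tests of single members gave an unadjusted p below 0.05 in 7 of 60 comparisons, and edgeR in 6 of the same 60. Permutation alone did so for Oprk1 between housings in RES mice (exact permutation p = 0.0339) and between SUS and RES mice of EE, and for Pdyn between SUS and RES mice of SH. The edgeR test alone did so for Pnoc, in SH RES against control mice and between housings in RES mice. The 3 near-zero differences of Penk in EE turned sign: RES minus control (-0.04) became 0.019 with the granule cell score and ran from -0.078 to 0.0052 (without EE control replicate 4) when 1 mouse was left out, SUS minus RES (-0.02) became 0.032 with marker scores and ran from -0.051 to 0.023 (without EE RES replicate 9), and SUS minus control (-0.05) became 0.017 with marker scores. The Penk housing value over the phenotypes was 0.54 to 0.59 under the alternatives. Mice of equal replicate number had a median r of 0.09 over 126 pairs, beside -0.01 over 1086 pairs of other numbers. Of 54 mice, 7 were closest to their own number, and whether replicate numbers pair the mice was not tested. With a replicate block the members had 0 and the pathway genes 3 such calls (Rgs14 in RES mice, Rgs14 and Pcsk1n over the phenotypes), and calls over all genes were 228 in place of 50 for RES mice between housings and 581 in place of 442 over the phenotypes. DESeq2 called 245 and 680, and the granule cell score, an alternative chosen after seeing the data, left 0 and 118. SH SUS against control had 6 calls with edgeR, 1 with limma-voom and 7 with DESeq2, and defeated against control mice 8, 6 and 13. Of the 140 relations 36 passed with group means removed and 34 with them kept, and the 3 of Penk were not among the 34. Comparisons over both housings or all phenotypes could not be fitted with groups fitted alone. Oprk1, counted as few as 15 times in a mouse, and Oprm1, as few as 37 times, are limited by depth.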
